A study of Mus musculus with 38 samples.

Results

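Snap25, Vamp2, Stx1a, Cplx1 and Cplx2, the genes of the neuronal SNARE complex and its complexin regulators, were followed as 5 listed members among 22401 genes in ribosome footprints of mouse neurons. The members were chosen by name, and their values are footprint counts in the coding sequence (CDS) of the longest annotated transcript, scaled to the CDS total of the library (CPM). The assay was PL-Ribo-seq, in which the biotin ligase TurboID labels proteins near it, streptavidin captures labelled ribosomes, and the mRNA stretches those ribosomes protect are sequenced. Primary cortical cultures from embryos of CD-1 mice, transduced with doxycycline-inducible lentivirus, carried either TurboID-PSD95, which is targeted to dendrites by sequences of the postsynaptic scaffold PSD95, or Pan-TurboID, which lacks a localization signal. The 38 libraries formed 14 groups, always an input (all monosome footprints) and a streptavidin pulldown of the same cultures. All cultures received cycloheximide for 2 min and then biotin, 30 min by the labels. In the KCl experiment, resting and depolarized cultures of each bait had 3 replicates, and depolarized cultures were silenced with tetrodotoxin and DL-AP5 for 2 h before 55 mM KCl for 1 h. Cultures of the DHPG experiment carried TurboID-PSD95, were silenced likewise for 2 h and received DHPG at 100 µM, which activates metabotropic glutamate receptors of group I, for 10 min, with 3 replicates. Cultures of the knockdown experiment carried TurboID-PSD95 and had 20 nM siRNA against the initiation factor eIF4G2 for 72 h, at rest or after the KCl treatment, with 2 replicates each. Both latter experiments are compared with TurboID-PSD95 cultures of the KCl experiment, so treatment and experiment cannot be told apart there, and cultures with a non-targeting siRNA were not analysed here. The description of the knockdown pulldowns names the cytosol while their lentivirus field names PSD95-TurboID, and the latter was used.

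Synaptic vesicles fuse when the vesicle protein synaptobrevin-2 (Vamp2) zips together with syntaxin-1A (Stx1a) and SNAP-25 (Snap25) of the plasma membrane into a bundle of helices. Complexins (Cplx1 and Cplx2) are small cytosolic proteins that bind this bundle, hold it ready and help synaptotagmin trigger fusion when calcium enters. These are known chiefly as presynaptic, axonal proteins, although SNAREs including SNAP-25 also act in the delivery of receptors to dendritic membranes.

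The alternative coding exons of Snap25 are shown because the transcript chosen by length holds only one of them, and because each is a separate segment in the files. Exon 5a lies at chr2:136769743-136769860 and exon 5b at chr2:136770057-136770174, on the plus strand of mm10, and they are used in exclusion of each other. They encode part of the linker and first helix of SNAP-25, with the cysteines that are palmitoylated. The 31 bases of 118 that differ are in capitals.

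Snap25 exon 5a: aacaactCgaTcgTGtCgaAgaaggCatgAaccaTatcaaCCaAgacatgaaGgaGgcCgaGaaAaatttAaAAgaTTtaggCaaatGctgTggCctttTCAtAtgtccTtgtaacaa
Snap25 exon 5b: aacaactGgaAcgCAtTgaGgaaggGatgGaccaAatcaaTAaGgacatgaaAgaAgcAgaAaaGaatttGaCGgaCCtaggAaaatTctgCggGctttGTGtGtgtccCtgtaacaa

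The exons shared 73.7% of bases, with no identical run longer than 8 bases, against a shortest counted read of 25 nt. The proteins they give differ at 9 of 206 residues. The second stretch shown is the coding segment that held most Vamp2 footprints, coding nucleotides 3 to 123, at chr11:69089106-69089226 on the plus strand of mm10, printed without capitals.

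Vamp2 densest coding segment: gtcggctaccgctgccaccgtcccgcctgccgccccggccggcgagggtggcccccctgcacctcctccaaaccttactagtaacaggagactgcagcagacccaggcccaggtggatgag

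The CDS of Snap25 (621 nt in 7 segments) runs from 136756130 to 136781143 on chromosome 2, and that of Vamp2 (351 nt in 5 segments) from 69088626 to 69090666 on chromosome 11. Stx1a (771 nt in 9 segments, chromosome 5, 135023581 to 135049003) was represented by an annotated nonsense-mediated-decay transcript. Its first 8 coding segments are those of the full-length transcript, which holds more counts and was run as an alternative. The CDS of Cplx1 (405 nt, minus strand of chromosome 5, 108520129 to 108548536) and that of Cplx2 (405 nt, plus strand of chromosome 13, 54378669 to 54379709) have 3 segments each. The complexin genes shared 79.6% of coding bases and differed at 21 of 134 residues. They had 8 runs of 25 bases in common, the length of the shortest counted read, so a small part of their counts is uncertain. Snap25 shared no such run with Snap23, nor Vamp2 with Vamp1 or Vamp3.

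CDS totals ranged from 2048604 to 14646402 counts per library, with a median of 6179229 for inputs and 4531717 for pulldowns, and the lowest count of a member in any library was 9. Dlg4, which encodes PSD95 and is carried by the bait construct, was at 337 to 5220 CPM in TurboID-PSD95 pulldowns of the KCl experiment and at 15.7 to 50.1 CPM in Pan-TurboID pulldowns. Eif4g2 was at a mean of 284 CPM in resting knockdown inputs and 569.6 CPM in resting inputs without siRNA. Neuronal markers summed to between 5788 and 9487 CPM in every input. Glial markers were also present: the 7 astrocyte markers summed to between 532 and 1056 CPM in resting TurboID-PSD95 inputs, 219 to 229 CPM under DHPG and 594 to 608 CPM in the resting knockdown. Replicates were numbered in the labels. The main fits take input and pulldown of one culture as separate libraries. Their p-values thus describe the spread between libraries of a group, and not that of the paired ratio between cultures.

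Per length, Vamp2 was the most densely occupied member at rest and Cplx2 the least. Over the 6 resting inputs of the KCl experiment, the mean level per kilobase was 1090 CPM for Vamp2, 544.3 CPM for Snap25, 379.8 CPM for Cplx1, 149 CPM for Stx1a and 87.8 CPM for Cplx2. These levels placed Vamp2 at rank 61 of 22401 genes and Snap25 at rank 210, followed by Cplx1 at 362, Stx1a at 1150 and Cplx2 at 1990. All 5 are thus well above the middle of the table in whole cultures, and the order Vamp2, Snap25, Stx1a, Cplx2 of the mean levels per kilobase held in all 7 input groups. Cplx1 changed its place: it lay next to Snap25 in depolarized TurboID-PSD95 inputs (451 CPM per kilobase beside 462), level with Stx1a under DHPG (236 beside 239), and below Stx1a in the resting knockdown (104 beside 157). Snap25 and Cplx1 after KCl, and Cplx1 and Stx1a under DHPG, did not differ beyond their spread.

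**Figure D1:**
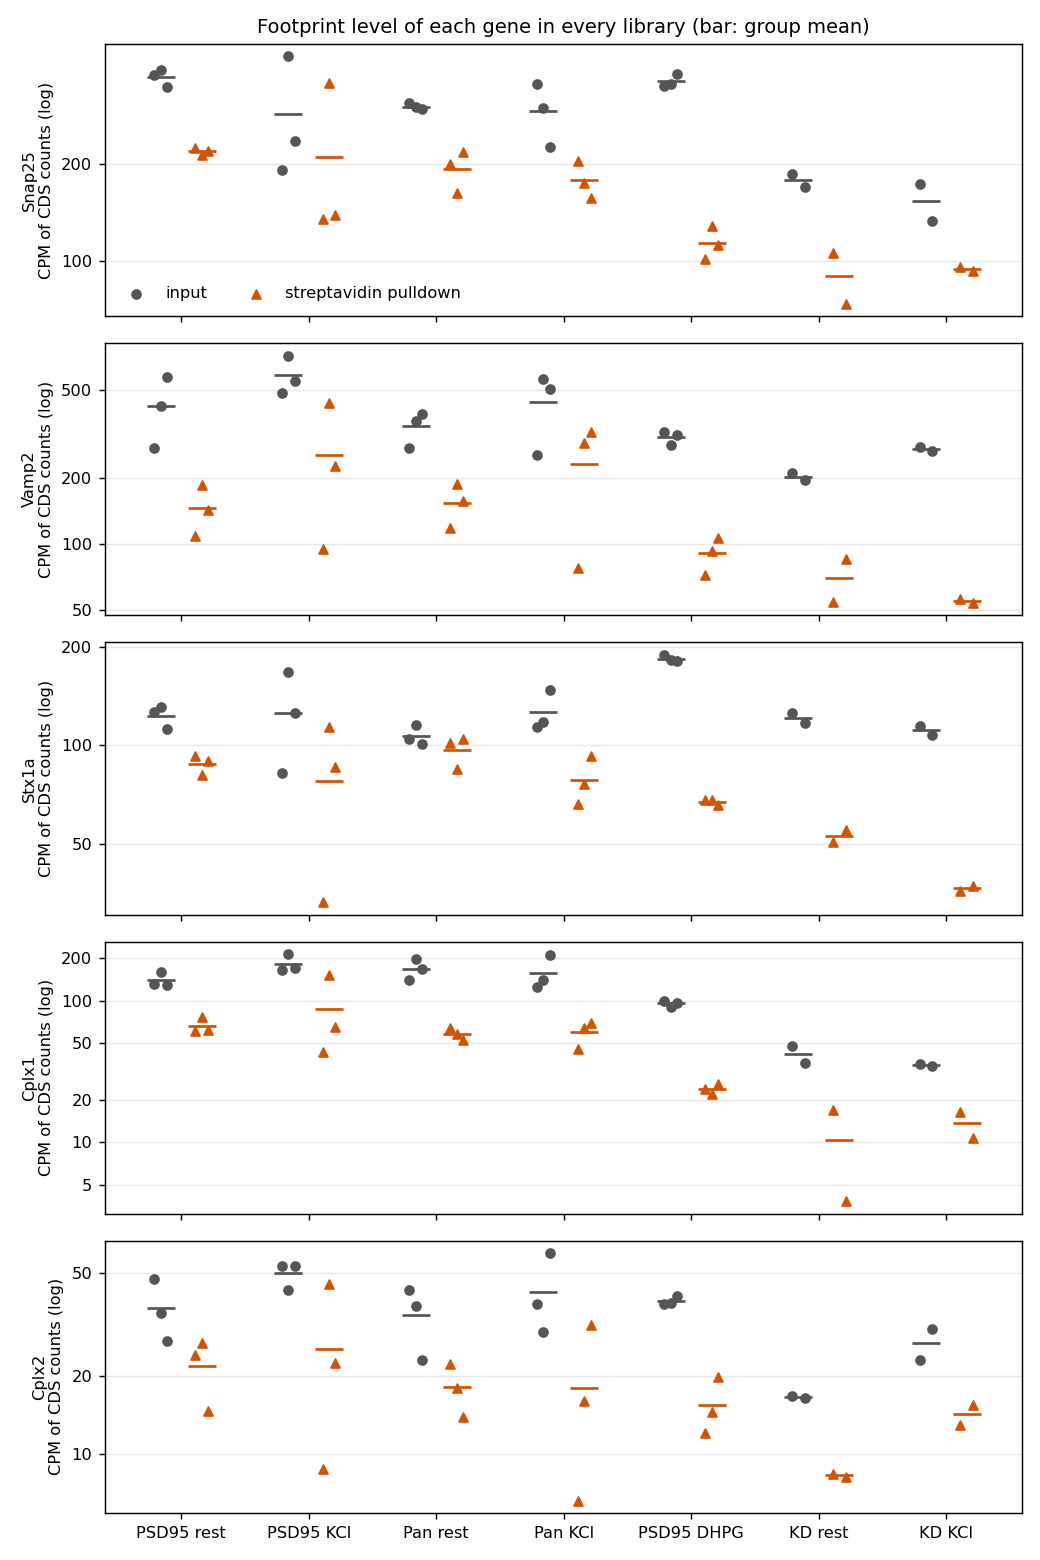
CPM of CDS counts (log axis) of each gene in all 38 libraries, with circles for inputs, triangles for streptavidin pulldowns and bars for group means (PSD95 and Pan name the bait, KD the eIF4G2 knockdown). Pulldowns lie under inputs in nearly every group, and Cplx1 is lowest in the knockdown libraries, down to 3.84 CPM.

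Footprints of the 5 genes were scarcer in pulldowns than in inputs with either bait and under each treatment. Of 95 pairs of a pulldown with the same-numbered input, 93 (97.9%) were lower in the pulldown, beside 52.3% of such pairs over 7680 well-covered genes (mean log2 CPM of at least 4) and 88.2% over those of them with a CDS as short as the members' (351 to 771 nt). The exceptions were Stx1a in replicate 3 of resting Pan-TurboID, at a log2 ratio of 0.05, and Cplx2 in replicate 2 of depolarized TurboID-PSD95, at 0.07. By the edgeR quasi-likelihood test at a false discovery rate (FDR) of 0.05, adjusted over all genes tested, 20 of 35 fitted member values fell and none rose, beside 3.64% to 39.3% of all genes that fell in the 7 kinds of culture.

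Vamp2, the vesicle SNARE, had 272, 422 and 575 CPM in resting TurboID-PSD95 inputs and 108, 185 and 143 CPM in the matching pulldowns. All pulldowns were below all inputs, and the fitted log2 fold was -1.50 ± 0.47 (SE, adjusted p = 0.025), a 2.83-fold lower level. Resting Pan-TurboID gave a similar picture, with inputs of 273, 363 and 391 CPM above pulldowns of 119, 188 and 156 CPM. The log2 fold there, -1.10 ± 0.46, did not pass (adjusted p = 0.12). It passed with the replicate number as a block within each condition (adjusted p = 8e-04). Both baits share this replicate block, so it does not stand for single cultures. Over 19 pairs the median log2 ratio of Vamp2 was -1.33, from -2.36 to -0.65.

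Snap25, which supplies a pair of helices to the complex, had 380.2, 394 and 347 CPM in resting TurboID-PSD95 inputs and 224.5, 213 and 219 CPM in pulldowns. The groups did not overlap, and the log2 fold of -0.74 ± 0.29 missed the threshold (adjusted p = 0.06) but passed with the replicate block (adjusted p = 0.0077). In resting Pan-TurboID, Snap25 stood at 309, 301 and 297 CPM in inputs and 199.5, 163 and 218 CPM in pulldowns. The log2 fold was -0.60 ± 0.29 (adjusted p = 0.16), and 0.038 was reached with the block.

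Stx1a, the plasma membrane syntaxin, had the smallest difference at rest. Resting TurboID-PSD95 inputs held 126, 131 and 112 CPM and pulldowns 92.5, 81.0 and 89.8 CPM, without overlap (log2 fold -0.46 ± 0.26, adjusted p = 0.20). In resting Pan-TurboID the inputs, at 104, 115 and 101 CPM, overlapped the pulldowns, at 102, 84.8 and 104.5 CPM. The log2 fold there was -0.09 ± 0.26 (adjusted p = 0.85).

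Cplx1 was the member that fell in all 7 comparisons of pulldown with input. At rest, TurboID-PSD95 inputs had 132, 159 and 128 CPM and pulldowns 60.95, 77.2 and 62.0 CPM (log2 fold -1.03 ± 0.28, adjusted p = 0.012). Pan-TurboID inputs had 140.5, 197 and 166 CPM and pulldowns 64.0, 58.6 and 52.9 CPM (log2 fold -1.48 ± 0.28, adjusted p = 0.015). Neither bait showed overlap. Cplx2, the less abundant complexin, had 47.6, 34.9 and 27.3 CPM in resting TurboID-PSD95 inputs and 24.0, 26.7 and 14.6 CPM in pulldowns (log2 fold -0.69 ± 0.42, adjusted p = 0.24). The lowest input was just above the highest pulldown.

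After KCl, Cplx1 again fell with TurboID-PSD95 (-1.02 ± 0.28, adjusted p = 0.022) and with Pan-TurboID (-1.34 ± 0.28, adjusted p = 0.016), while the other 4 members did not pass with either bait. Replicate 2 of the depolarized TurboID-PSD95 cultures stood apart, with the highest Snap25 level of its group in the input (433 CPM against 191 and 236 CPM) and in the pulldown (357 CPM against 135 and 139 CPM). Its pulldown was also the highest of the group for the other members. With the replicate block, Vamp2, Stx1a and Cplx2 also passed for TurboID-PSD95 (adjusted p = 9.5e-05, 0.015 and 0.038), and all 5 passed for Pan-TurboID.

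The share of all tested genes that fell was 13.5% in resting and 4.39% in depolarized TurboID-PSD95, and 5.05% and 3.64% in Pan-TurboID, where 2, 1, 1 and 1 of the 5 members fell. Under DHPG all 5 members fell, against 39.3% of all genes, and in the resting and depolarized knockdown all 5 fell against 23.4% and 24.8%. Of genes with a CDS of 351 to 771 nt, 78.4%, 47.6% and 50.1% fell in the same order. With the replicate block, 29 of 35 values passed in place of 20, and Cplx2 in the depolarized knockdown no longer did (adjusted p = 0.072). The share of all genes that fell with this block is not given here, so the added calls cannot be set against it. Libraries of the same number left out together took the call from Cplx1 in each comparison of the KCl experiment, with adjusted p of up to 0.29, and from Vamp2 in resting TurboID-PSD95 (up to 0.26).

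**Figure D2:**
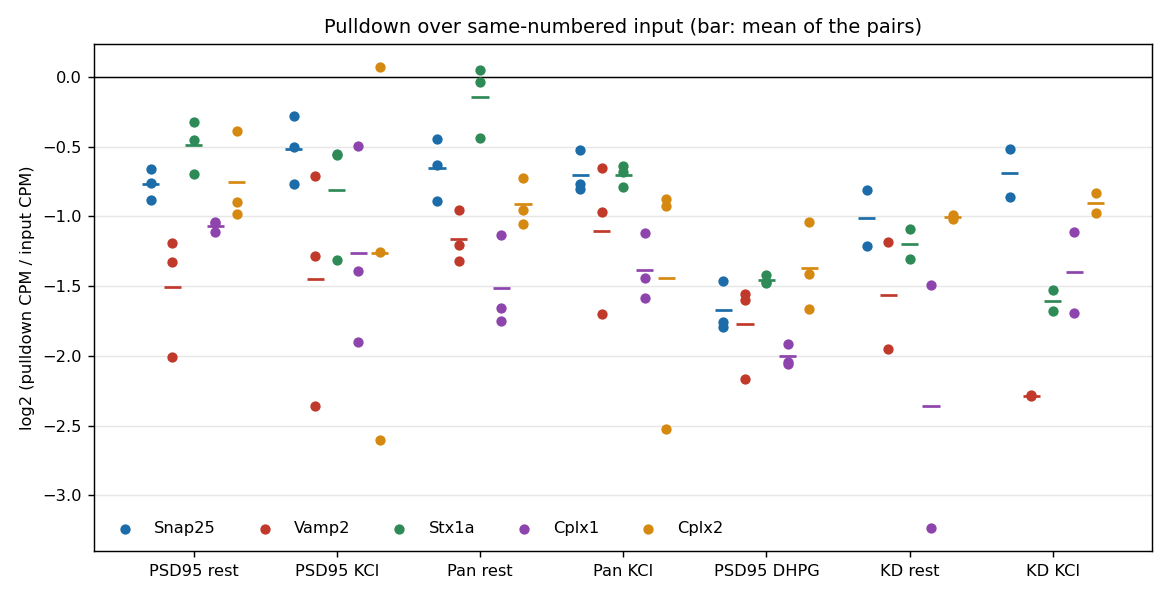
Log2 ratio of pulldown CPM to same-numbered input CPM for each gene (colours) in the 7 kinds of culture, with 1 point per culture and bars for the mean of the pairs. Of 95 points 93 are below 0, and the widest gap is Cplx1 in replicate 2 of the resting knockdown, at -3.23 with 9 counts in the pulldown.

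Under DHPG all 5 members fell, with small standard errors. The DHPG inputs differed among themselves by 1.49 to 1.93 chi-square units per gene and the DHPG pulldowns by 2.90 to 9.45, against 8.75 to 49.5 within groups of the KCl experiment and 2.83 to 4.54 in the knockdown, so that numbers of calls are not comparable between experiments. Vamp2 had 323, 283 and 314 CPM in DHPG inputs and 72.0, 93.3 and 107 CPM in pulldowns (log2 fold -1.54 ± 0.10, adjusted p = 1.7e-10). Snap25 had 350.1, 355 and 380.3 CPM in inputs and 101, 128 and 112 CPM in pulldowns (-1.46 ± 0.08, adjusted p = 6e-12). Inputs and pulldowns were far apart in both genes. Stx1a fell by 1.25 on the log2 scale, Cplx1 by 1.79 and Cplx2 by 1.10. No member's DHPG pulldown reached its lowest input, but 39.3% of all genes fell under DHPG and 40.5% rose. The share of all genes without such overlap is not given here. In the resting knockdown the log2 folds were -0.85 for Snap25, -1.46 for Vamp2, -1.09 for Stx1a, -1.74 for Cplx1 and -0.89 for Cplx2. In the depolarized knockdown they were -0.61, -2.18, -1.51, -1.25 and -0.80 in the same order, and Cplx2 passed only just (adjusted p = 0.049). Without single knockdown libraries, the Cplx2 calls in both conditions were lost in 4 and 6 of 8 fits, and those of Cplx1 and Snap25 in the depolarized knockdown in 2 and 1. Cplx1 in the resting knockdown kept its call in 8 of 8 such fits, at -3.34 to -1.19.

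The members share a short CDS, which the rule did not use, and short genes as a whole were lower in pulldowns. Of the 13019 genes tested in the KCl experiment, 4.89% had a shorter CDS than Vamp2, 15.8% than Snap25 and 22.4% than Stx1a. Among genes with a CDS of 351 to 771 nt, the span of the members, the median log2 fold of pulldown over input was -0.80 in resting TurboID-PSD95 (2289 genes), beside a members' median of -0.74 and an all-gene median of -0.05. In resting Pan-TurboID the median of that length range was -0.64 and that of the members -0.90. After KCl they were -0.58 and -0.89 with TurboID-PSD95, and -0.59 and -0.90 with Pan-TurboID. Under DHPG they were -1.16 and -1.46, and 78.4% of genes in the range fell. In the resting knockdown they were -0.83 and -1.09, and 47.6% of genes in the range fell. The depolarized knockdown gave -0.94 and -1.25, and 50.1% fell.

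With the trend over CDS length removed from each library, 8 of 35 member values fell, in place of 20. The share of all genes that fell after this correction is not given here. At rest with TurboID-PSD95 none remained, and Vamp2 was at -0.50 ± 0.28 (adjusted p = 0.24) and Cplx1 at -0.09 ± 0.19 (adjusted p = 0.80). The 8 were Cplx1 in resting Pan-TurboID (-0.68, adjusted p = 0.044), Snap25, Vamp2, Stx1a and Cplx1 under DHPG (-0.58, -0.21, -0.62 and -0.54), Stx1a in the resting knockdown (-0.64), and Stx1a and Vamp2 in the depolarized knockdown (-0.95 and -0.86). Cplx2 under DHPG stood at 0.14 ± 0.13 after this correction (adjusted p = 0.33). CDS length moved with the pulldown difference in every kind of culture, and whether it accounts for the members' difference was not tested.

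**Figure D3:**
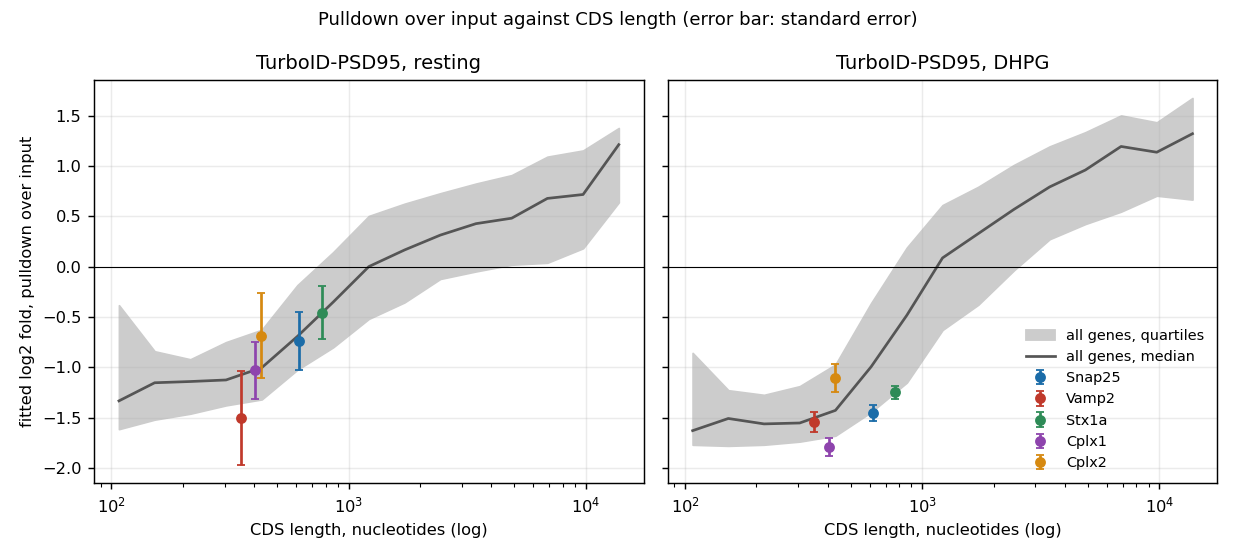
Fitted log2 fold of pulldown over input (vertical, error bars are standard errors) against CDS length in nucleotides (log axis) for the 5 genes, over the median and quartiles of all tested genes in length bins, for resting and DHPG-treated TurboID-PSD95 cultures. Cplx2 is drawn slightly to the right of Cplx1, whose length it shares. At rest the members lie near the median line, within about 1 standard error. Under DHPG Snap25, Stx1a and Cplx1 lie below that line, Vamp2 lies near it and Cplx2 lies above it.

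Counts within the CDS were uneven, and a single segment held much of each member's count. In Vamp2, the 121-nt segment printed above held 74.5% ± 9.6 (SD, n = 3) of CDS counts in resting TurboID-PSD95 inputs, 82.2% ± 8.9 in depolarized inputs and 85.2% ± 0.18 (n = 2) in depolarized knockdown inputs. Under DHPG it held 51.8% ± 2.2, the lowest share among inputs. In pulldowns its share was 62.4% ± 6.5 at rest. In Stx1a, a segment of 78 nt held 46.5% ± 5.5 in resting TurboID-PSD95 inputs and 29.5% ± 3.1 in the pulldowns, with no overlap. In Snap25, the sixth segment of 145 nt held 47.0% ± 2.5 in resting inputs and 44.4% ± 6.7 in pulldowns.

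Without the densest segment of each member, an alternative added after the values were seen, 15 of 35 values of pulldown over input fell. The counts of all other genes were left unchanged in it. Vamp2 in resting TurboID-PSD95 then stood at -0.85 ± 0.45 (adjusted p = 0.17) and Stx1a at -0.06 ± 0.26 (adjusted p = 0.90). All of the 15 except Cplx1 with Pan-TurboID came from the DHPG and knockdown cultures.

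**Figure D4:**
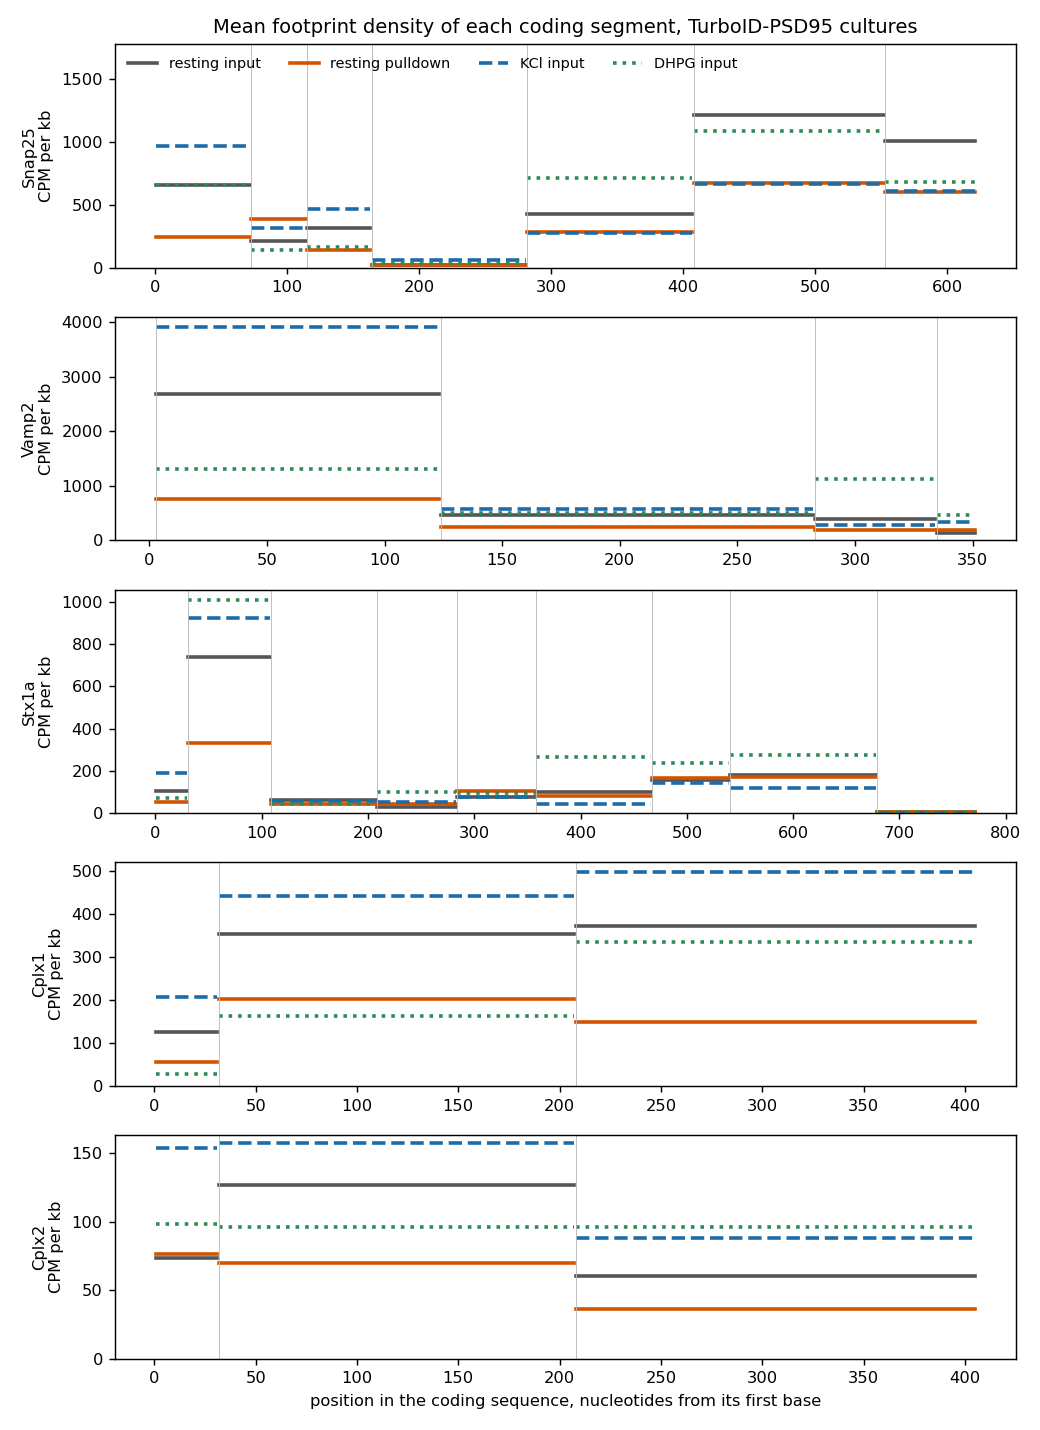
Mean footprint density (CPM per kilobase) in each coding segment, drawn along the CDS from its first base, for resting inputs, resting pulldowns, KCl inputs and DHPG inputs of TurboID-PSD95 cultures (means of 3). In resting and KCl inputs the second segment of Vamp2 and of Stx1a stands far above the rest of its CDS, and the fourth Snap25 segment, exon 5b, is nearly empty (the very short first Vamp2 segment is not drawn).

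Of the Snap25 footprints on exons 5a and 5b, most came from exon 5a, the form known as the earlier one in brain development. Exon 5a had 2572 counts and exon 5b 625 over the 38 libraries, so that 5b made up 19.6% of both (95% Wilson interval 18.2 to 21.0%, which covers counting error only). Exon 5a was ahead in 36 of 38 libraries. The exceptions had few counts: replicate 1 of depolarized TurboID-PSD95 inputs, at 71.4% from 35 counts, and replicate 2 of depolarized knockdown pulldowns, at 88.9% from 9 counts. The share of 5b was 17.0% ± 6.7 (SD, n = 6) in resting and 27.2% ± 23.6 in depolarized inputs of the KCl experiment (exact two-sided permutation p = 0.403, Benjamini-Hochberg 0.716). In pulldowns it was 21.8% ± 9.0 and 18.0% ± 12.7 (exact p = 0.530, Benjamini-Hochberg 0.716), and pulldowns differed from same-numbered inputs by -2.19 points over 12 pairs (exact p = 0.716). The libraries of these tests held 17 to 234 counts for both exons together.

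KCl depolarization, which the study used to ask how activity changes translation, moved few member values. Over both baits, 12 inputs gave a KCl log2 fold of -0.18 ± 0.20 for Snap25, 0.44 ± 0.32 for Vamp2, 0.16 ± 0.19 for Stx1a, 0.18 ± 0.20 for Cplx1 and 0.40 ± 0.29 for Cplx2, with adjusted p from 0.40 to 0.61. None passed, while 15.4% of all genes did. Vamp2 was the least even, at 272 to 575 CPM in 6 resting inputs and 254 to 718 CPM in 6 depolarized inputs, ranges that overlap. In TurboID-PSD95 pulldowns Vamp2 was at 94.8, 439 and 226 CPM after KCl, and its log2 fold was 0.80 ± 0.46 (adjusted p = 0.33), which passed without the first replicates (0.96, adjusted p = 0.019). No member passed in TurboID-PSD95 pulldowns (6.6% of all genes) or in Pan-TurboID pulldowns (5.03%).

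In knockdown cultures 2 of 10 values passed. Vamp2 rose in inputs, from 209.9 and 195 CPM at rest to 275 and 264 CPM after KCl (log2 fold 0.43 ± 0.14, adjusted p = 0.029, against 19.3% of all genes). Its densest segment rose from a mean of 121 to 229 CPM, while the remainder of the CDS had 81.5 CPM at rest and 40.0 CPM after KCl. Without that segment the log2 fold turned to -1.01 ± 0.21 (adjusted p = 8.8e-04), and with the length trend removed it was 0.03 (adjusted p = 0.92). Stx1a fell in pulldowns, from 50.5 and 55.05 CPM to 35.9 and 37.1 CPM (log2 fold -0.52 ± 0.18, adjusted p = 0.039, against 22.2% of all genes). The ranges did not overlap in either case. With 2 libraries on each side, this also held for values that did not pass. These were Stx1a, Cplx1 and Cplx2 in inputs and Cplx2 in pulldowns. With single knockdown libraries left out, the Vamp2 call was lost in 4 of 8 fits (adjusted p up to 0.26) and the Stx1a call in 7 of 8 (up to 0.12).

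The KCl effect on pulldown over input passed in 0 of 15 member values, with 0% of all genes for TurboID-PSD95, 0% for Pan-TurboID and 3.77% for the knockdown. The nearest was Vamp2 in the knockdown, whose ratio was lower by 0.72 ± 0.22 on the log2 scale after KCl (adjusted p = 0.073), and 0.049 with the replicate block. Without replicate 1 of the resting knockdown pulldowns 2 values passed, Vamp2 at -1.06 and Cplx1 at 2.07, the latter set against a single pulldown with 9 counts.

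TurboID-PSD95 and Pan-TurboID did not differ detectably in pulldown over input for any member. The difference between baits was 0.06 ± 0.29 for Snap25, -0.34 ± 0.45 for Vamp2, -0.18 ± 0.26 for Stx1a, 0.38 ± 0.28 for Cplx1 and 0.26 ± 0.42 for Cplx2, as log2 values with adjusted p of 1. Of all genes 0.00768% passed, which is Dlg4 alone, and 0% did in the comparison of the baits' inputs. These standard errors leave room for differences as large as many of the pulldown values themselves, so likeness of the baits was not shown.

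DHPG cultures, set against resting TurboID-PSD95 cultures, differed in 7 of 15 member values. Stx1a was higher in DHPG inputs, at 189.5, 182 and 182 CPM, than in the resting inputs given above, with no overlap (log2 fold 0.68 ± 0.10, adjusted p = 8.5e-05). Cplx1 was lower there, at 99.4, 90.3 and 97.1 CPM (-0.45 ± 0.14, adjusted p = 0.019). Snap25 stayed within the resting range (0.05 ± 0.10), and Vamp2 (-0.36 ± 0.27) and Cplx2 (0.18 ± 0.23) did not pass. Of all genes 32.8% passed in inputs.

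In DHPG pulldowns Cplx1 was at 23.9, 21.9 and 25.7 CPM, below all resting pulldowns (log2 fold -1.25 ± 0.15, adjusted p = 4.6e-06). Snap25 was lower by 0.71 ± 0.10 (adjusted p = 4.5e-05), and 47.7% of all genes passed. Vamp2, at -0.45 ± 0.28 (adjusted p = 0.21), passed with the replicate block (0.0097). Pulldown over input was further below 0 under DHPG than at rest for Snap25 (difference -0.76 ± 0.15, adjusted p = 0.0062), Stx1a (-0.83 ± 0.14, adjusted p = 0.0030) and Cplx1 (-0.81 ± 0.20, adjusted p = 0.024), against 6.84% of all genes. For Vamp2 and Cplx2 the differences were -0.09 ± 0.39 and -0.48 ± 0.33. With the length trend removed Stx1a stayed past the threshold (-0.59, adjusted p = 0.034), and Snap25 and Cplx1 did not (-0.48 and -0.46, adjusted p = 0.082 and 0.16). Cplx1 in inputs was not called without the second or without the third replicates (adjusted p up to 0.15), and neither were the differences of Snap25 and Cplx1 without any of the 3 numbered sets (up to 0.11 and 0.18), and that of Stx1a kept its call in 1 of 3 such fits (up to 0.11). Without the densest segments 11 values passed, and Vamp2 in inputs turned from -0.36 to 0.69 ± 0.13 (adjusted p = 8.8e-04). Marker genes also moved between these experiments, with the 9 markers of the oligodendrocyte lineage at 236 to 580 CPM in resting and 43.9 to 47.5 CPM in DHPG inputs, and their part in the result was not tested.

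Cplx1 was the member most reduced in eIF4G2 knockdown cultures. In resting inputs it had 47.8 and 36.1 CPM, below the 128 to 159 CPM without siRNA (log2 fold -1.72 ± 0.41, adjusted p = 0.018). After KCl it had 35.5 and 34.9 CPM in inputs, against 163.5 to 214 CPM without siRNA (-2.35 ± 0.43, adjusted p = 0.0029). Pulldowns had 17.0 and 3.84 CPM at rest (-2.52 ± 0.46, adjusted p = 0.0012) and 16.4 and 10.8 CPM after KCl (-2.59 ± 0.47, adjusted p = 9.3e-04), from as few as 9 counts. With numbered sets of libraries left out, the log2 fold in resting pulldowns lay between -4.14 and -1.75. For Cplx1, no knockdown library reached any of the libraries it was compared with. This also held for Snap25 and Vamp2, for Cplx2 except in depolarized pulldowns, and for Stx1a in resting pulldowns only. The share of all genes without such overlap is not given here.

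Among the other members, Snap25 fell in resting (-1.23 ± 0.34, adjusted p = 0.025) and depolarized pulldowns (-1.08 ± 0.34, adjusted p = 0.030), with 106 and 73.4 CPM at rest. In inputs it was at 186 and 170 CPM at rest, below every resting input without siRNA, and did not pass (-1.05 ± 0.33, adjusted p = 0.076). Vamp2 fell in depolarized pulldowns, to 56.5 and 54.0 CPM (-2.11 ± 0.46, adjusted p = 0.0046), and Stx1a fell there by 1.03 ± 0.32 (adjusted p = 0.029) with overlapping ranges. Stx1a in inputs was level with the cultures without siRNA, at 125 and 117 CPM at rest (0.00 ± 0.29). Cplx2 had log2 folds from -1.37 to -0.81, and none passed. Those of Cplx2 in resting pulldowns (adjusted p = 0.051) and Snap25 in resting inputs lay near the threshold, and they passed under 6 and 5 of the alternatives, among them DESeq2 (0.028 and 0.027) and no filter on low counts (0.011 and 0.022).

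Of all genes, 2.01% fell in resting inputs, 2.14% in depolarized inputs, 4.97% in resting pulldowns and 10.9% in depolarized pulldowns. No member passed for a difference in KCl response between knockdown and no knockdown, where 0.00758% of all genes passed in inputs and 0.447% in pulldowns. These log2 differences ran from -0.63 to 0.25 in inputs and from -1.08 to 0.56 in pulldowns. Their standard errors were 0.42 to 0.63, so likeness of the responses was not shown. In all, 8 of 30 values passed, and 2 without the second replicates, which were Cplx1 in depolarized inputs and in resting pulldowns. Those 2 also kept their call without the first or the third replicates. Snap25 in resting pulldowns lost it in each of the 3 fits (adjusted p up to 0.13), and Cplx1 in resting inputs without the second or the third (up to 0.16). Without the second replicates, the log2 folds in depolarized pulldowns were -1.67 for Cplx1 (adjusted p = 0.051), -1.43 for Vamp2 (0.26), -0.46 for Snap25 (0.42) and -0.67 for Stx1a (0.49). With the replicate number as a block within each experiment 14 of 30 passed, the 6 added being Vamp2 in resting inputs (adjusted p = 0.026), depolarized inputs (0.016) and resting pulldowns (0.023), Snap25 in resting (0.0067) and depolarized inputs (0.037), and Cplx2 in resting pulldowns (0.044). The share of all genes that passed with this block is not given here. Markers of inhibitory neurons summed to 470 to 474 CPM in resting knockdown inputs and 1023 to 1390 CPM in resting inputs without siRNA. Those of the oligodendrocyte lineage summed to 183 to 187 CPM against 236 to 580 CPM, and those of microglia to 11.9 to 15.01 CPM against 1.30 to 3.82 CPM. Markers of progenitors summed to 325 to 344 CPM against 331 to 576 CPM in these inputs. In pulldowns they summed to 515 to 540 CPM against 249 to 451 CPM at rest. After KCl the pulldown sums were 727 to 829 CPM against 185 to 341 CPM. Their part in the result was not tested, and fewer cells of a type cannot be told apart from fewer footprints per cell in such cultures.

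**Figure D5:**
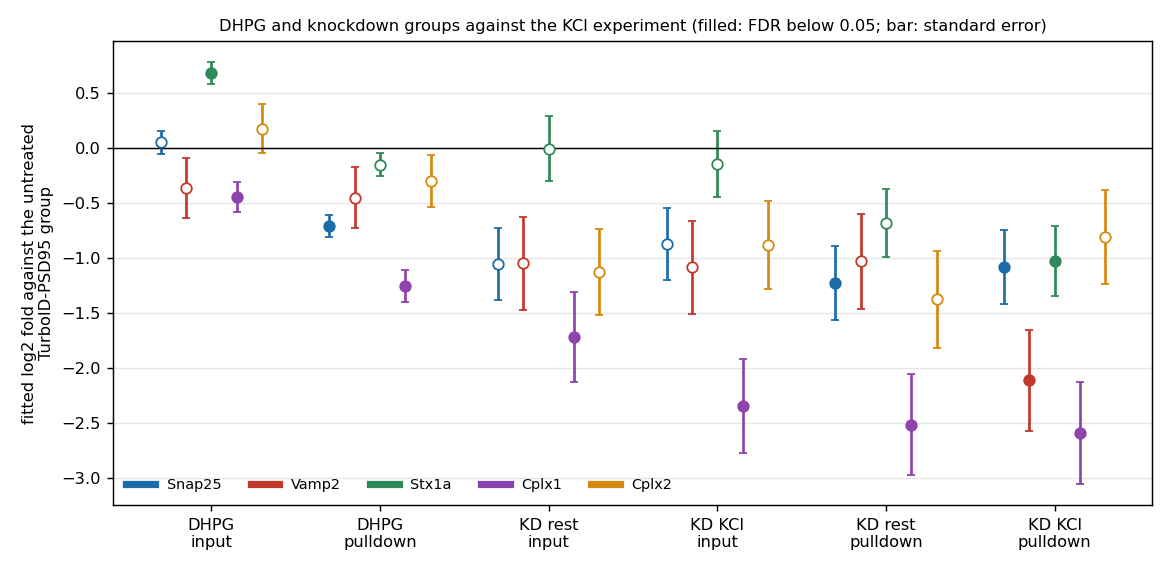
Fitted log2 fold (error bars are standard errors) of each gene in DHPG and eIF4G2 knockdown (KD) libraries against TurboID-PSD95 libraries of the KCl experiment in the same fraction, resting for DHPG and in the same state for KD, with filled points below an FDR of 0.05. Cplx1 is filled in all 6 comparisons, from -0.45 to -2.59, and Stx1a in DHPG inputs is the only filled point above 0.

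A large part of complexin and Snap25 footprints lay upstream of the CDS. Reads are placed by their 5′ end with no offset, so ribosomes on the first codons count as 5′ UTR. The 5′ UTR share of 5′ UTR and CDS counts had an input median of 78.4% for Cplx2, 71.4% for Cplx1 and 48.5% for Snap25, against 17.7% for Stx1a, 9.14% for Vamp2 and 20.6% over all genes. The Stx1a value rests on the 5′ UTR of the nonsense-mediated-decay transcript, which is 21 nt long, against 99 nt in the full-length transcript, so it is not comparable with the other genes. In pulldowns the medians were 70.2%, 65.1%, 46.1%, 9.72% and 12.8%, and 6.54% over all genes. The share was lower in the pulldown in 15 of 19 pairs for Snap25, 15 for Stx1a, 15 for Cplx1 and 16 for Cplx2, in 6 for Vamp2, and in all 19 over all genes together.

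After KCl, the 5′ UTR share of Snap25 was 57.7% ± 8.0 in 6 inputs, against 46.8% ± 6.5 at rest (exact two-sided permutation p = 0.032). Cplx2 in pulldowns had 75.7% ± 5.7 against 66.8% ± 6.0 (exact p = 0.019), and Snap25 in pulldowns 52.7% ± 9.9 against 40.8% ± 6.8 (exact p = 0.041). None of the 10 comparisons passed after adjustment, and these 3 had the smallest Benjamini-Hochberg value, 0.137 by the exact tests. Over all genes the share was 23.2% after KCl and 20.1% at rest in inputs, and 10.7% and 7.84% in pulldowns.

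Other genes of the fusion pathway, 57 listed by role, moved both ways in the pulldowns, and roles were not tested against each other. In resting TurboID-PSD95, 8 of 53 tested rose and 10 fell over input, beside 11.5% and 13.5% of all genes. Their median log2 fold was -0.48, and that of all genes -0.05. Of 13 assembly and priming factors 5 rose and 2 fell, and under DHPG 8 rose and 5 fell, beside 40.5% and 39.3% of all genes. Unc13a, which encodes the vesicle priming factor Munc13-1 and has a CDS of 5139 nt, rose in all 7 kinds of culture, by 0.68 to 0.91 on the log2 scale, for example from a mean of 242 to 410.2 CPM at rest with TurboID-PSD95 (0.80 ± 0.16, adjusted p = 0.0034). Long genes were higher as a whole: those in its length bin, centred at 4871 nt, had a median of 0.96 under DHPG (quartiles 0.42 to 1.33). At rest with TurboID-PSD95 that median was 0.48 (quartiles 0.02 to 0.91). Stxbp2, a Munc18 protein, rose from 7.98 to 41.7 CPM there (2.40 ± 0.40, adjusted p = 0.0020). Stxbp5, or tomosyn, which binds syntaxin in place of Vamp2, rose in depolarized TurboID-PSD95 (1.23 ± 0.20) and Pan-TurboID (0.78 ± 0.20). Prrt2, a synaptic protein that binds SNAREs, fell in depolarized Pan-TurboID (-0.94 ± 0.30, adjusted p = 0.0496) and in the depolarized knockdown (-2.02 ± 0.24).

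Of 18 SNAREs of the endoplasmic reticulum, Golgi and endosomes, 5 fell at rest with TurboID-PSD95 and none rose. There, 13.5% of all genes fell and 11.5% rose, and 31.0% of genes with a CDS of 351 to 771 nt fell. Vti1b fell by 1.16 ± 0.27 and Stx12 by 1.29 ± 0.30 (adjusted p = 0.0056 and 0.0058), with CDSs of 699 and 825 nt. Under DHPG 17 of 18 fell, beside 39.3% of all genes and 78.4% of those with a CDS of 351 to 771 nt. Stx12 was lower there by 1.77 ± 0.07. Snap47, an atypical SNAP-25 relative, rose under DHPG (0.82 ± 0.05) and in both knockdown conditions (0.50 and 0.77). It is 1 of 12 listed exocytic SNARE relatives. Under DHPG 2 of the 7 tested rose and 4 fell, beside 40.5% and 39.3% of all genes. In the resting and depolarized knockdown 1 of 8 rose in each, and 2 and 1 fell, beside 23.4% and 24.8% of all genes. The median log2 folds of this list were -0.88, -0.26 and -0.77 in the same order. Nsf, the ATPase that takes SNARE complexes apart, fell in the resting knockdown (-0.81 ± 0.09). It is 1 of 4 listed disassembly genes, and all 4 fell there, beside 23.4% of all genes. All 4 also fell under DHPG and in the depolarized knockdown, beside 39.3% and 24.8% of all genes. Of the 8 calcium sensors 2 rose and none fell at rest with TurboID-PSD95, beside 11.5% and 13.5% of all genes. Under DHPG 3 rose and 2 fell, and 2 of 7 tested fell and none rose in each knockdown condition. Over all genes, 2707 of 12239 rose in the resting and 2935 in the depolarized knockdown. The counts of the sensors lie near or below the shares of all genes under DHPG (40.5% and 39.3%), and their fallers near those in the knockdown (23.4% and 24.8%).

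The KCl response of inputs passed for 5 of the 53 pathway genes, beside 15.4% of all genes. Ykt6 and Stx18, SNAREs of the early secretory route, rose by 0.51 ± 0.13 and 0.61 ± 0.20 (adjusted p = 0.0061 and 0.034). Stxbp5 had a mean of 66.9 CPM at rest and 23.7 CPM after KCl (-1.45 ± 0.14, adjusted p = 3.4e-08), and Snph, which encodes syntaphilin, fell by 0.63 ± 0.18 (adjusted p = 0.016). No member moved with them.

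Across the 38 libraries, the genes whose log2 CPM followed a member most closely were Tspyl4 (Pearson r = 0.94) and Phyhipl (0.93) for Snap25, and 1500011B03Rik and Wbp2 (both 0.97) for Vamp2. For Stx1a they were Cdip1 and Araf (both 0.91), for Cplx1 Maf and Chchd10 (both 0.94), and for Cplx2 Atp6v1g2 (0.89) and Tpi1 (0.88). Among the members themselves r ranged from 0.66 for Stx1a with Cplx1 to 0.86 for Snap25 with Cplx1. These values describe 7680 genes over libraries that share cultures, fraction and experiment, and carry no test.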

How the data were processed

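The authors aligned footprints to mm10 with Rsubread, and their file names mark removal of ribosomal RNA and duplicates. Per the file headers, plastid then counted 5′ ends of reads of 25 to 100 nt per CDS or UTR segment, with an offset of 0. The deposited counts were used, and the deposited RPKM values and counts per nucleotide were not. Use of strand in counting is not given in the sources used here. Duplicate removal can flatten dense short regions, and shared exons count for every transcript.

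The longest transcript of each gene was used (66664 of 67238 coding transcripts matched to GENCODE symbols). Counts of all genes were tested with edgeR 4.0.16 (quasi-likelihood F test, robust, TMM, filterByExpr; R 4.3.3) at a Benjamini-Hochberg FDR of 0.05, in fits of 24, 6, 8, 12 and 20 libraries. The procedure was tested on simulated data. Alternatives used DESeq2 1.42.0, the likelihood ratio test, RLE scaling, no filter, other transcripts, a length trend and left-out libraries. Input and pulldown of one number come from one culture by the study's methods, and their deviations correlated at 0.36 to 0.71 in the KCl experiment and -0.21 to 0.05 under DHPG and in the knockdown. Resting and activated cultures of one replicate were handled together by the same methods, and their deviations correlated at -0.19 to 0.42. Named pathway genes were those with the 2 smallest p in each direction and every pair moving alike. One gene that met this rule is not reported here. Members, lists and rules were chosen with earlier results of these data known.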

Additional observations from a re-analysis of the deposited data

Results flagged for a closer look

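Pulldown over input differed between DHPG and rest for 3 of the 5 genes by a test of the difference itself. For Stx1a the log2 difference was -0.83 ± 0.14 (edgeR, adjusted p = 0.0030), for Snap25 -0.76 ± 0.15 (adjusted p = 0.0062) and for Cplx1 -0.81 ± 0.20 (adjusted p = 0.024). Within each of these genes all DHPG ratios lay below all ratios at rest, which adds no support, because the genes were picked by this difference. The ratios of Vamp2 overlapped, at -2.16 to -1.56 under DHPG and -2.01 to -1.19 at rest. Those of Cplx2, which was not called, did not overlap. With the length trend removed, Stx1a passed (adjusted p = 0.034) and Snap25 and Cplx1 did not (0.082 and 0.16). Without each numbered set of libraries in turn, the calls of Snap25 and Cplx1 were lost in 3 of 3 fits and that of Stx1a in 2 of 3. The resting libraries come from the KCl experiment, so DHPG and experiment cannot be told apart.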

How the results depend on the processing

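With the trend over CDS length removed, 8 calls were made in place of 20 for pulldown over input and 1 in place of 2 for KCl. DESeq2 gave 1 KCl call, and 4 passed without the densest segments, which also gave 11 DHPG calls in place of 7. For the KCl effect on pulldown over input, no filter, the likelihood ratio test, DESeq2 and the replicate block each gave 1 call (Vamp2 in the knockdown) in place of 0. The replicate block gave 14 knockdown calls in place of 8. It changed no call of the KCl response. Shares of all genes under these settings are not given here.

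Values that turned direction and passed before or after were Cplx2 in pulldown over input with the length trend removed, at 0.14 under DHPG, 0.10 in the resting and 0.41 in the depolarized knockdown, Snap25 there at 0.17, and, without the densest segments, Vamp2 at -1.01 for KCl in knockdown inputs and 0.69 in DHPG inputs. The cause was not tested. A further 84 single values changed sign and passed under neither setting. With libraries left out, calls ranged from 15 to 20 for pulldown over input, 0 to 3 for KCl, 0 to 2 for its effect on pulldown over input, 4 to 6 for DHPG and 2 to 6 for the knockdown. Of 37 called values 16 kept their call in every such fit. Counts were lowest for Cplx2, Cplx1 in knockdown pulldowns and the Snap25 exons, which limits what can be seen there. Counts for the baits, exons and 5′ UTR were 0 under all alternatives run. DESeq2 gave no adjusted p for Cplx1 and Cplx2 in the KCl effect in the knockdown.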

Other observations

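The 3′ UTR held few member footprints, with a median over libraries of 0.225% of CDS and 3′ UTR counts for Snap25, 1.29% for Cplx1, 2.24% for Vamp2 and 3.79% for Cplx2, beside 2.20% over all genes. Stx1a stood at 18.8%, where the 3′ UTR of the transcript used overlaps the last coding exons of the full-length transcript. In pulldowns the medians were 4.70% for Vamp2, 8.96% for Cplx2 and 3.52% for Cplx1, beside 2.95% over all genes. In inputs they were 1.81%, 2.30% and 0.709%, beside 1.67% over all genes.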
